A study of Mus musculus with 5 samples.

Results

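The genes described here are those of cholesterol synthesis, of cholesterol transport and of the sensors that set both, in the mouse neuroblastoma line Neuro2A, of which 5 lines were measured. The set holds 32 genes. They were taken as every probe set, that is every group of array probes for one transcript, whose platform annotation gave exactly 1 gene symbol and whose symbol was in the set. This found 65 of 45037 probe sets, for 29 of the 32 genes. Acat2, Nr1h2 and Soat1 had no such probe set and were not analysed here. Of the 65, 55 were bright enough to be tested, as part of the 22519 probe sets tested over the whole array. Each gene is given by its probe set of highest mean log2 signal. By that probe set 27 of the 29 genes were tested, and Nr1h3 and Abcg1 were not.

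Cells build cholesterol from acetyl-CoA in a long chain of enzymes. The first part makes mevalonate and then small isoprenoids, which also feed protein prenylation and dolichol, and the second part makes squalene, closes it into the sterol rings and trims these to cholesterol. Transcription of most of these enzymes is driven by SREBP-2, a membrane-bound transcription factor encoded by Srebf2. Its escort SCAP carries it to the Golgi when sterol is scarce, and INSIG proteins hold it back when sterol is plentiful. The liver X receptors (LXR) respond to excess sterol and drive efflux genes.

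The control lines were the parental cells, which carry no vector (control replicate 1), a stable line transfected with an empty vector (replicate 2) and one with a knockdown vector against EGFP, a protein that mouse cells lack (replicate 3). KDM7 knockdown lines 1 and 2 were stable lines, each from its own vector, in which KDM7, the histone demethylase encoded by Kdm7a, was knocked down, and the study asked how KDM7 affects gene expression. All lines share the Neuro2A background and a culture condition that the labels call standard. The sources used here do not give whether a line is 1 clone or a pool, nor how much sterol the medium held. Each line was measured on 1 array. Lines served as replicates of an arm, the labels do not say that they were cultured separately, and p-values thus measure only the spread between these 5 arrays.

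Values are MAS5 signals, a linear brightness per probe set, and a log2 difference is knockdown minus control unless another pair is named. Kdm7a was lower in both knockdown lines. Its brightest probe set, 1435867_at, had a signal of 660 in the parental, 648 in the empty vector and 872 in the EGFP knockdown line, and of 231 and 143 in KDM7 knockdown lines 1 and 2 (log2 difference -1.99, SE 0.25, adjusted p = 0.128 in limma). Another, 1456150_at, passed the test at an adjusted p of 0.0468 in limma (log2 difference -2.13, SE 0.20). That call was lost with cyclic loess (adjusted p = 0.0514), with the plain variance model (0.722) and without any 1 array other than the parental one (0.0902 to 0.659), while the log2 difference stayed between -2.26 and -1.90 in all alternatives. Of 14 neuroblastoma and neuronal markers 13 were measured and 10 were bright enough to be tested, with a summed signal of 57886 to 62868 in the control and 59855 to 67056 in the knockdown lines. Single markers varied more between lines than the sum, with Isl1 at 316 to 1998 and Gata3 at 95.3 to 585. Th, Nefl and Nefm were under the test's brightness limit. The summed markers of fibroblasts, of macrophages and blood, and of Schwann cells and glia reached at most 223, 223 and 102 in any line.

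RefSeq promoter sequences (GRCm38.p6) matched 26 of the 32 genes by symbol, with 33 promoters, since some genes have several starts. Abcg1, Fdft1, Fdps, Npc1, Sqle and Stard4 were not among them. The 250 bases before each start were searched on both strands for TCACNCCAC, the sterol regulatory element that SREBPs bind, for CCAAT, the NF-Y box, and for GGGCGG, the Sp1 box, which are the partner motifs described for SREBP sites. Only exact matches were sought, with N for any base, and variants of the motifs were not searched. No matches of different motifs overlapped in these promoters. The promoters of 5 genes are shown. Of these, Mvd, Tm7sf2, Msmo1 and Insig1 had higher signals in either knockdown line than in any control and 1 start each in the table. Hmgcs1 was not higher and was the 1 gene whose window held a match to the sterol element. The sequences run 5′ to 3′ on the strand of the gene, and capitals mark matches to any of the 3 motifs on either strand.
Hmgcs1 (chr13:119690101-119690350, plus strand): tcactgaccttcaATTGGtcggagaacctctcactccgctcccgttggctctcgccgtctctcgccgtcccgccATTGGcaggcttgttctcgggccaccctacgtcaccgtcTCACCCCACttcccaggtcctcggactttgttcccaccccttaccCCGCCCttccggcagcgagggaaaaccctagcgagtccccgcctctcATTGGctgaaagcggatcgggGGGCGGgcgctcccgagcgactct
Mvd (chr8:122443423-122443672, minus strand): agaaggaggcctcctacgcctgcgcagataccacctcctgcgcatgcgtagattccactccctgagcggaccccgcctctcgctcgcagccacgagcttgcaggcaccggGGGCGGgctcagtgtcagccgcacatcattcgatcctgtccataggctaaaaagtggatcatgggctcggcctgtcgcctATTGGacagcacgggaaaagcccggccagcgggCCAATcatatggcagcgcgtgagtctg
Tm7sf2 (chr19:6067851-6068100, minus strand): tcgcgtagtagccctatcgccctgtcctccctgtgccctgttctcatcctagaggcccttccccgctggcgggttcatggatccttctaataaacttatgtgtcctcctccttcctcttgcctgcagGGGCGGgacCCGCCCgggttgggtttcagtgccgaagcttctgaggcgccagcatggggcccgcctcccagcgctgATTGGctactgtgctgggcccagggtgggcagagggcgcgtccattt
Msmo1 (chr8:64733579-64733828, minus strand): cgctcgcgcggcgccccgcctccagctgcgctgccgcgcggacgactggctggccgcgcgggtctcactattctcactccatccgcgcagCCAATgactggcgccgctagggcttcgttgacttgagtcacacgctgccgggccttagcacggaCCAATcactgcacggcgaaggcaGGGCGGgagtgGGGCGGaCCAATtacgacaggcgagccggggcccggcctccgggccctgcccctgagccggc
Insig1 (chr5:28071162-28071411, plus strand): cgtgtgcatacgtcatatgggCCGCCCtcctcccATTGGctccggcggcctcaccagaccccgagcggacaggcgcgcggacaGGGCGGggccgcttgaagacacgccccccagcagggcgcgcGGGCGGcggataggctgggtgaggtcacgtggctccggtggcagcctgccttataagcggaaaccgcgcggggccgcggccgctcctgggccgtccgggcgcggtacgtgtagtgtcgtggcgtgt
In Hmgcs1 the match to the sterol element began 137 bases before the start, with NF-Y boxes at 237, 176 and 45. Mvd carried NF-Y boxes at 60 and 27 bases before the start, Tm7sf2 1 at 47, Msmo1 3 at 160, 96 and 55, and Insig1 1 at 216. Pmvk and Dhcr7, also higher in both knockdown lines, have several starts and are not shown. Of the 2 starts of Pmvk 1 held an NF-Y box, at 136, and the other held none of the motifs. Of the 3 starts of Dhcr7 1 held NF-Y boxes, at 85 and 49. Over the 33 promoters 21 held CCAAT (63.6%, against 33.8% of all 32851 promoters in the table), 23 held GGGCGG (69.7% against 32.7%) and 1 held TCACNCCAC (3.03% against 1.05%). The promoters shown were chosen by the signals of their genes and by the sterol element. Genes not above every control line also held NF-Y boxes, among them Mvk with 5, Ggps1 with 3 and Idi1 with 2. These matches describe letters in this window, and a link to the signals was not tested.

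No sterol gene passed the test between knockdown and control lines. In both knockdown lines 8 of the 29 genes (27.6%) lay above every control line, where 12.6% of all probe sets tested lay. These genes were Pmvk, Mvd and Fdps of the mevalonate part, Tm7sf2, Msmo1 and Dhcr7 of the sterol part, Insig1 and Stard4. With median centring 5 of them stayed above every control line (6.02% of all probe sets). Nr1h3, a dim gene, lay below every control line, where 10.2% of all probe sets lay. The other 20, among them Hmgcs1, Fdft1, Sqle, Cyp51 and Idi1, overlapped with the controls. The median log2 difference over the 29 genes was 0.15, beside 0.03 over all 22519 probe sets. Of the 29 differences 21 were above 0, beside 54.8% of all probe sets tested. The genes were chosen with earlier results of these data known, so these shares are descriptions and not independent tests.

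In limma 0 of the 55 tested probe sets passed an adjusted p of 0.05, as against 0% higher and 0.00888% lower over all probe sets. The smallest adjusted p was 0.916. Of the 27 tested genes 5 had an unadjusted p under 0.05 in limma, all higher (over all probe sets 2.58% were higher and 2.38% lower at that level), and 2 had it, both higher, in limma with a single, not robust, prior variance (3.05% higher and 2.51% lower over all probe sets). Standard errors of the 27 genes ran from 0.09 to 0.51 with a median of 0.16, which limits what 3 against 2 arrays can separate. The 8 genes above every control line are 27.6% of the 29, where 12.6% of all probe sets tested lay there. The 1 gene below, Nr1h3, is 3.45%, where 10.2% of all probe sets lay there. Over the brightest probe set of every gene these background shares were 12.6% and 9.28%.

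The count depended on how the arrays were scaled and on which lines were compared. Centring each array on its median moved every log2 difference by -0.11 and left 5 genes above, Pmvk, Mvd, Fdps, Tm7sf2 and Insig1, and 2 below, Nr1h3 and Sqle, with 6.02% and 17.7% of all probe sets. Without the parental line 11 of 29 genes lay above both remaining controls (37.9%, against 18.5% of all probe sets), adding Ggps1, Insig2 and Abcg1, and 3 lay below (17.7% of all probe sets). Without KDM7 knockdown line 2 the count above was 13, with 23.5% of all probe sets. The count below was 5 without KDM7 knockdown line 1, with 20.9% of all probe sets, and 2 without the empty vector line (17.6%) or without the EGFP knockdown line (16.6%). Without those 3 lines in turn the counts above were 10, 12 and 10, with 24.5%, 21.7% and 23.5% of all probe sets.

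**Figure D1:**
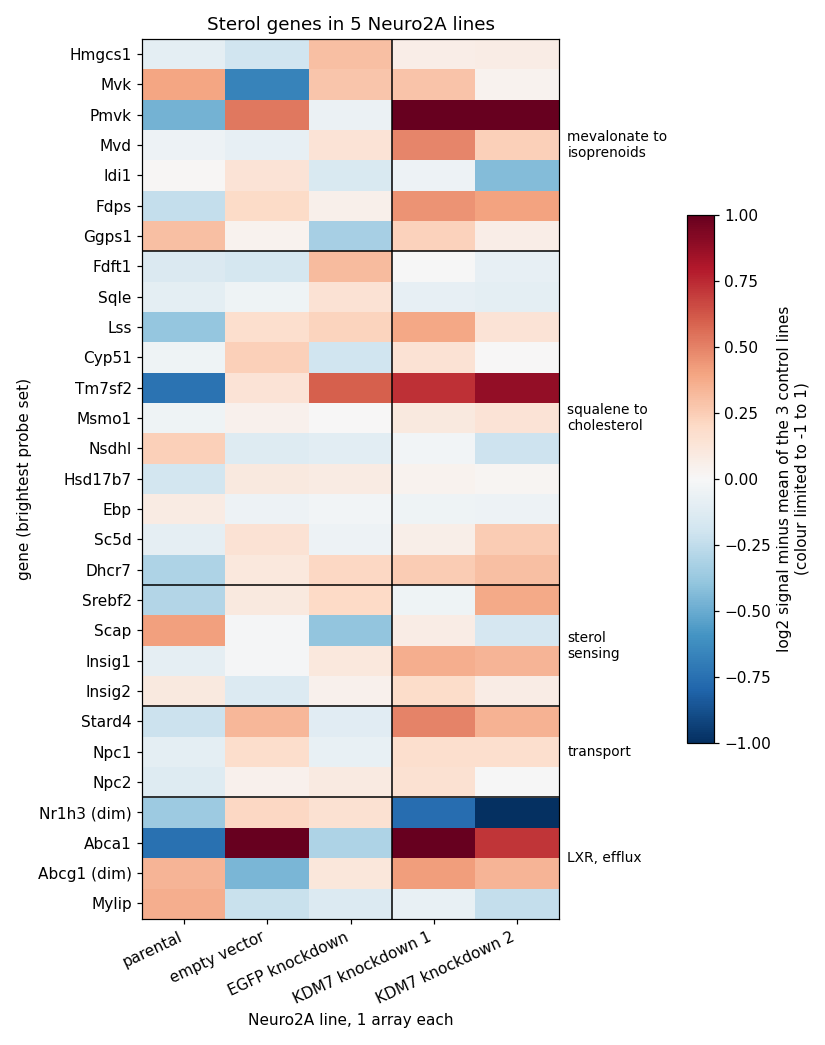
Heat map of the 29 measured sterol genes (rows, brightest probe set, ordered by pathway step) in the 5 Neuro2A lines (columns). Colour is the log2 signal minus the mean of the 3 control lines, limited to -1 to 1, and Nr1h3 and Abcg1 were too dim to be tested. Pmvk, Fdps, Insig1 and Tm7sf2 are red in both knockdown columns, while Hmgcs1 and Fdft1 are reddest in the EGFP knockdown column.

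In the mevalonate part 3 of 7 measured genes lay above every control line (12.6% of all probe sets), and the median log2 difference was 0.16. Without the parental line this median was 0.30, while that of all 29 genes went from 0.15 to 0.11. Without that line Mvk (0.36) and Ggps1 (0.30) had larger differences. Pmvk (0.77), Mvd (0.34), Fdps (0.30) and Hmgcs1 (0.02) had smaller ones, and Idi1 had -0.23. Against all 3 control lines Pmvk, which adds the second phosphate to mevalonate, had the largest difference of the tested sterol genes, with Abca1 next at 0.99. Its signal was 1252 in the parental, 2501 in the empty vector and 1663 in the EGFP knockdown line, and 3512 and 3450 in KDM7 knockdown lines 1 and 2. The knockdown lines lay close together and above all controls, but the controls themselves spread widely, with the empty vector line well above the parental line. The control mean was 1805 ± 637 (SD, n = 3) and the knockdown mean 3481 ± 43.7 (SD, n = 2), 2.01-fold higher by mean log2 values (log2 difference 1.01, SE 0.26, adjusted p = 0.916 in limma). It was 0.77 without the parental line.

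Mvd, which decarboxylates the product of Pmvk to isopentenyl diphosphate, had signals of 1457, 1429 and 1660 in the control lines and 2120 and 1784 in the knockdown lines (log2 difference 0.36, SE 0.15). Its second probe set had 1001, 995 and 1038 against 1420 and 1175 (0.35, SE 0.15). Both probe sets placed both knockdown lines above the controls, line 1 more than line 2. Fdps makes farnesyl diphosphate, the branch point towards sterols, dolichol and prenyl groups. It was at 9926, 13374 and 12172 in the control lines and 16051 and 15476 in the knockdown lines (log2 difference 0.43, SE 0.12, adjusted p = 0.916 in limma). The parental line was the lowest of the 5, and the difference was 0.30 without it.

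The enzymes on either side did not share this order. Hmgcs1, which makes HMG-CoA at the entry of the pathway, was at 11349, 10589 and 15020 in the control lines and 12717 and 12836 in the knockdown lines (log2 difference 0.07, SE 0.14). The EGFP knockdown line was the highest and the knockdown lines lay within the control range. The same line was the highest for all 5 probe sets of Hmgcs1, whose log2 differences ran from 0.07 to 0.15. Idi1, which isomerises isopentenyl diphosphate, had 9213, 10011 and 8216 in the control lines and 8795 and 6765 in the knockdown lines (log2 difference -0.24, SE 0.13). Only knockdown line 2 was below all controls, by this and by the second probe set, and the difference was -0.05 without that line. Mvk, the first kinase, had 219 in the empty vector line, 456 in the parental and 421 in the EGFP knockdown line, and 424 and 357 in the KDM7 knockdown lines (0.16, SE 0.32). Its sign turned to -0.17 without the empty vector line. Ggps1, which makes geranylgeranyl diphosphate for prenylation, had a log2 difference of 0.15 (SE 0.21), with 0.05 to 0.19 by its 3 other probe sets.

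**Figure D2:**
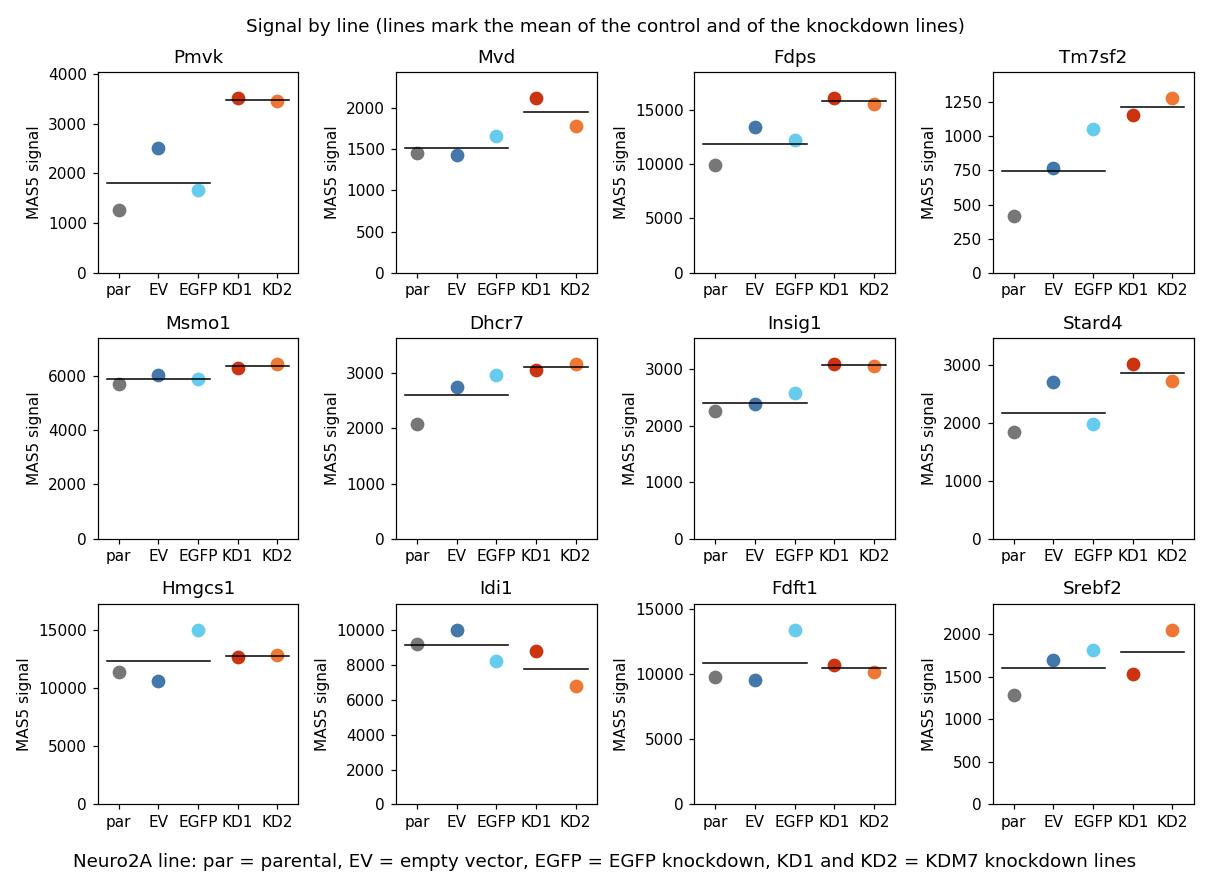
MAS5 signal (linear, axes from 0) of 12 sterol genes in each of the 5 lines, with bars at the mean of the 3 control and of the 2 knockdown lines. In the 8 panels of the first 2 rows both knockdown lines lie above every control line, and in the 4 panels of the last row they do not.

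From squalene to cholesterol 3 of 11 genes lay above every control line and 0 below (12.6% and 10.2% of all probe sets). The median log2 difference was 0.07, or 0.05 without the parental line. Tm7sf2, one of a pair of enzymes that reduce the sterol ring after lanosterol demethylation, had the widest span across lines. Its signals were 417 in the parental, 766 in the empty vector and 1053 in the EGFP knockdown line, and 1155 and 1281 in the knockdown lines. The EGFP knockdown line was nearer to the knockdown lines than to the parental line. The control mean was 745 ± 318 (SD, n = 3) and the knockdown mean 1218 ± 88.6 (SD, n = 2), with a log2 difference of 0.81 (SE 0.35, adjusted p = 0.916 in limma) that became 0.44 without the parental line.

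Dhcr7, which catalyses a last reduction to cholesterol, showed the same order on a smaller scale. It was at 2076, 2760 and 2962 in the control lines and 3066 and 3172 in the knockdown lines (log2 difference 0.28, SE 0.17, or 0.13 without the parental line). Msmo1, which removes methyl groups from the ring, was at 5689, 6043 and 5887 in the control lines and 6278 and 6442 in the knockdown lines. That is a narrow separation (log2 difference 0.12, SE 0.09), and a dim second probe set had -0.16 (SE 0.42). Lss, which closes the first sterol ring system, depended on the probe set. Its brightest had 2244, 3287 and 3418 in the control lines and 3831 and 3218 in the knockdown lines, with knockdown line 2 inside the control range (0.26, SE 0.19, or 0.07 without the parental line). Probe set 1426913_at had 675, 922 and 932 against 1255 and 1198, above all controls (0.56, SE 0.18), and 1420014_at had 0.03.

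By their brightest probe sets the remaining sterol enzymes differed by 0.16 or less. Of their other tested probe sets, 1422534_at of Cyp51 had 0.27 (SE 0.25). The dim 1424709_at of Sc5d had -0.49 (SE 0.54), and the rest differed by 0.16 or less. Fdft1, the squalene synthase, had 9749, 9527 and 13414 in the control lines and 10726 and 10160 in the knockdown lines (log2 difference -0.04, SE 0.15). Sqle, the squalene epoxidase, had 5360, 5562 and 6354 against 5413 and 5355 (-0.09, SE 0.11). For both the EGFP knockdown line was the highest of the 5, as it was for Hmgcs1. Cyp51, the lanosterol demethylase, was instead highest in the empty vector line, at 4214, where the other 2 controls had 3459 and 3109 and the knockdown lines 3941 and 3577 (0.07, SE 0.15). Nsdhl, Hsd17b7, Ebp and Sc5d, which act in turn on the methyl groups and double bonds, had log2 differences of -0.12 (SE 0.16), 0.03 (SE 0.13), -0.05 (SE 0.13) and 0.16 (SE 0.15). Ebp was the most even of these, between 1682 and 1847 in all 5 lines.

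Of the sterol sensors, by their brightest probe sets, Insig1 stood above the controls and the others did not. Insig1, which retains the SREBP escort in the endoplasmic reticulum and is itself an SREBP target, was at 2259, 2381 and 2583 in the control lines and 3092 and 3049 in the knockdown lines. Controls and knockdown lines were each close together. The control mean was 2408 ± 164 (SD, n = 3) and the knockdown mean 3070 ± 31.0 (SD, n = 2), 1.28-fold higher by mean log2 values (log2 difference 0.35, SE 0.12, adjusted p = 0.916 in limma). Over the alternatives it ranged from 0.24 to 0.40. Insig2, its paralog, had 0.13 (SE 0.16), and its 2 other probe sets had 0.30 (SE 0.18) and 0.25 (SE 0.20), 1 of them with both knockdown lines above the controls. Srebf2 itself was at 1290, 1693 and 1812 in the control lines and 1536 and 2054 in the knockdown lines (0.17, SE 0.20), so that line 1 was inside the control range and line 2 above it. Its second probe set had 0.00 (SE 0.16). Scap had 1785, 1331 and 1022 in the control lines and 1413 and 1196 in the knockdown lines (-0.05, SE 0.23), within the control range.

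**Figure D3:**
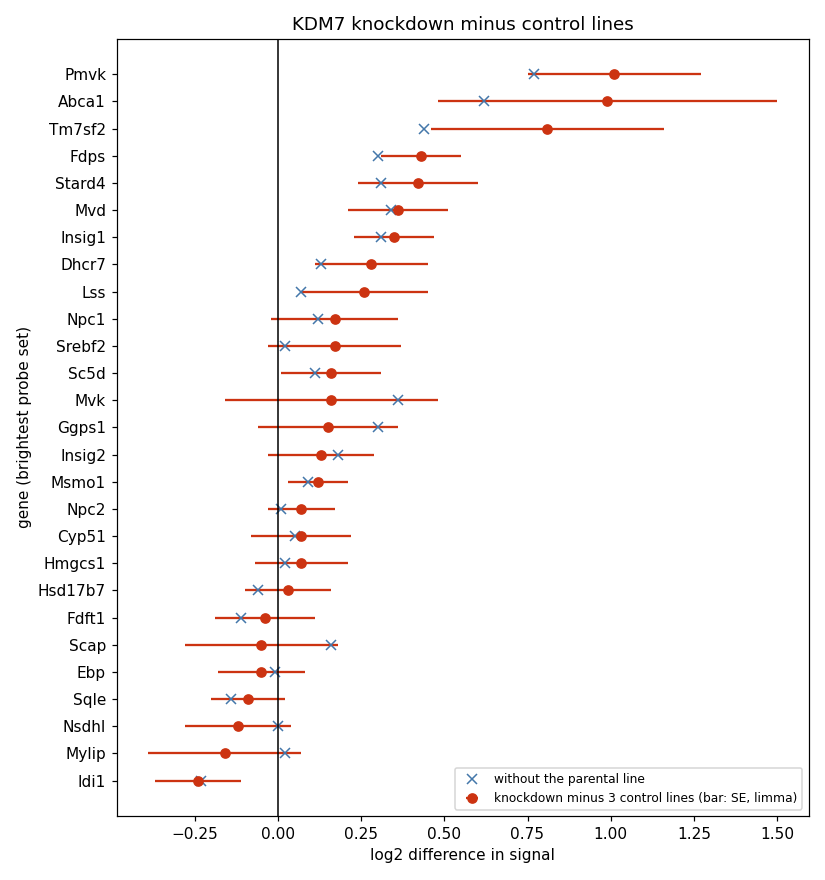
Log2 difference in signal, knockdown minus control, of the 27 tested sterol genes (red points, bars are standard errors from limma), sorted by size, with the value without the parental line as blue crosses. Pmvk is the largest at 1.01 and Idi1 the lowest at -0.24. The cross lies nearer to 0 for all 8 genes above every control line, and for Lss and Abca1. It lies further from 0 for others, among them Mvk, Ggps1 and Insig2.

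Among transport genes Stard4 lay above every control line. Stard4 encodes a soluble carrier that moves sterol between membranes. Its signals were 1840, 2698 and 1976 in the control lines and 3016 and 2719 in the knockdown lines (log2 difference 0.42, SE 0.18, adjusted p = 0.916 in limma). The empty vector line was nearly as high as knockdown line 2, and the other 2 controls were lower. Probe set 1455011_at placed both knockdown lines above the controls as well (0.41, SE 0.18), and 1429239_a_at did not (0.14, SE 0.16). Npc1 and Npc2, which export cholesterol from lysosomes, had 0.17 (SE 0.19) and 0.07 (SE 0.10). Npc1 was at 298, 361 and 303 in the control lines and 358 and 359 in the knockdown lines, below the empty vector line.

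The LXR and efflux genes were dim or uneven. Abca1, which exports cholesterol to apolipoproteins, was at 47.8, 166 and 64.6 in the control lines and 193 and 131 in the knockdown lines. The empty vector line lay between the knockdown lines, so the groups overlapped (log2 difference 0.99, SE 0.51, adjusted p = 0.916 in limma, or 0.62 without the parental line). Its other probe sets did not exceed a signal of 23.1 in any line. Nr1h3, the LXR alpha receptor, was at 47.0, 69.6 and 67.2 in the control lines and 35.6 and 8.33 in the knockdown lines. Both knockdown lines were below all controls, but the probe set's mean was under the brightness limit of 40.5 and no fold is given. Abcg1, another exporter, was at 21.0 to 38.4 in all lines, also under that limit. Mylip, which sends lipoprotein receptors to degradation, had 378 in the parental line, while the other 2 controls had 252 and 268 and the knockdown lines 280 and 249 (-0.16, SE 0.23), and 0.02 without the parental line.

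Several probe sets of a gene gave a check within the array. Of 15 genes with more than 1 tested probe set, 10 had all log2 differences on one side of 0. The 5 with probe sets on both sides were Cyp51, Msmo1, Hsd17b7, Sc5d and Srebf2. Counted on their own, 12 of the 55 tested probe sets lay above every control line and 0 below (12.6% and 10.2% of all probe sets). Those above included probe set 1417980_a_at of Insig2, whose log2 difference was already given with the sensors. It was at 459, 377 and 362 in the control lines and 479 and 498 in the knockdown lines. Probe sets of 1 gene share their RNA and array and are not replicates.

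**Figure D4:**
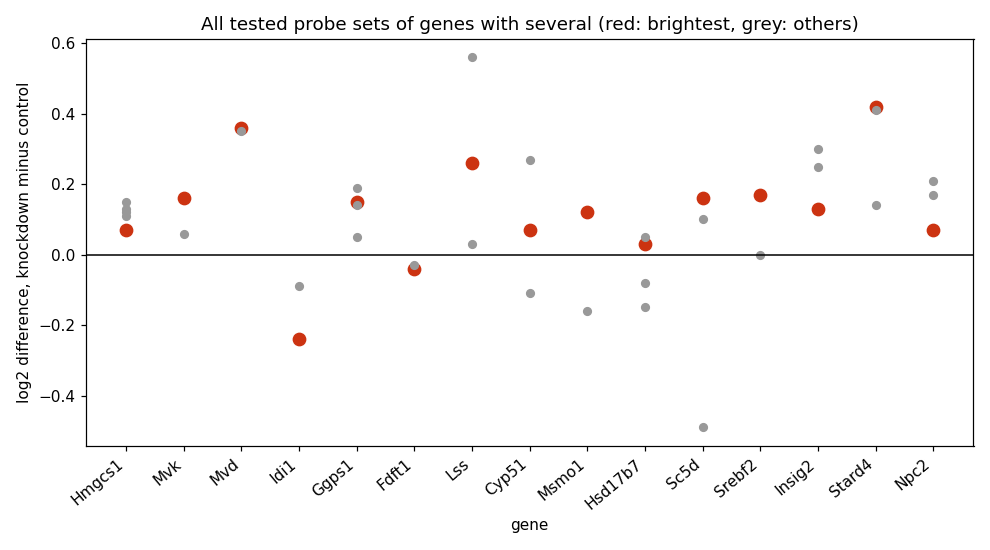
Log2 difference, knockdown minus control, of every tested probe set of the 15 genes with several (red for the brightest, grey for the others). Mvd, Stard4, Insig2 and Lss have all points above 0, and those of Cyp51, Msmo1, Hsd17b7, Sc5d and Srebf2 lie on both sides (for Srebf2 the lower one rounds to 0.00).

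The lines also differed apart from the knockdown. The parental line had the lowest signal for 14 of the 29 genes (48.3%), where it was the lowest for 31.5% of all probe sets tested. With median centring this was 6 of 29, against 16.1% of all probe sets. Over the 29 genes the median log2 difference from the parental line was 0.12 in the empty vector line, 0.19 in the EGFP knockdown line, and 0.16 and 0.18 in KDM7 knockdown lines 1 and 2. Over all probe sets tested it was 0.04, 0.06, 0.06 and 0.06. Each of these lines is 1 array, so no test was made. The median of the EGFP knockdown line, a control, was at the level of those of the KDM7 knockdown lines, and the part of the vector in the difference to the parental line was not tested.

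The vector controls also differed from each other by gene. The log2 difference of the EGFP knockdown minus the empty vector line was 0.50 for Hmgcs1, 0.49 for Fdft1, 0.46 for Tm7sf2 and 0.94 for Mvk. It was -0.59 for Pmvk, -0.45 for Stard4, -0.44 for Cyp51, -0.29 for Idi1 and -1.36 for Abca1. Genes of 1 pathway stood in different orders across these controls. In absolute size this gap was larger than the difference between knockdown and control for Hmgcs1, Mvk, Idi1, Ggps1, Fdft1, Sqle and Cyp51. The same held for Sc5d, Scap, Insig2, Stard4, Npc1, Abca1 and Abcg1. The gap was smaller for the other genes, among them those above every control line except Stard4.

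Each knockdown line was also set against the controls, assuming that a single line varies like them. In limma 0 of the 55 probe sets passed for line 1 (0% higher and 0% lower over all probe sets), for line 2 (0% and 0.00444%) or for line 2 against line 1 (0% and 0.00444%). At an unadjusted p under 0.05 line 1 had 2 of the 55 probe sets higher and 0 lower (0.639% and 1.35% of all probe sets), line 2 had 2 higher and 1 lower (0.91% and 1.86%), and between the lines there were 0 (0.546% and 0.968%). The median over the tested genes was 0.15 for line 1 and 0.08 for line 2, beside 0.03 over all probe sets for each. Pmvk had 1.02 and 0.99 in lines 1 and 2, Fdps 0.45 and 0.40, and Insig1 0.36 and 0.34, which were close to each other. Line 2 minus line 1 was 0.42 (SE 0.31) for Srebf2, -0.38 (SE 0.19) for Idi1 and -0.25 (SE 0.27) for Mvd. Line 1 was the highest of the 5 lines for 10 of the 29 genes and the lowest for 0, where it was the highest for 16.7% and the lowest for 14.6% of all probe sets. Line 2 was the highest for 5 of the 29 and the lowest for 5. Over all 10867 genes tested by their brightest probe set, line 2 was the highest for 2121 and the lowest for 1487.

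A list of 59 further genes of sterol and isoprenoid metabolism, also chosen with earlier results known, held 51 measured and 45 tested ones. Of the 45, 0 passed an adjusted p of 0.05 in limma (0% higher and 0.00888% lower over all probe sets). At an unadjusted p under 0.05 there were 5 of the 45, all higher (2.58% of all probe sets were higher and 2.38% lower at that level), and 1 with the single prior variance. The knockdown lines were both above the highest control for 10 of the 51 (19.6%, against 12.6% of all probe sets) and both below the lowest for 5 (9.80% against 10.2%), and the median log2 difference was 0.06. The 4 tested genes of largest fitted difference were Abca2, Apoe, Stard5 and Acss2, but for Abca2 and Apoe it rested on 1 array with a signal under the brightness limit of 40.5. Acss2, which makes acetyl-CoA from acetate, was at 777, 1008 and 943 in the control lines and 1592 and 1362 in the knockdown lines, above all controls (log2 difference 0.70, SE 0.17, adjusted p = 0.916 in limma). Stard5, another sterol carrier of the Stard4 family, was at 206, 316 and 401 against 563 and 423 (0.72, SE 0.29, or 0.46 without the parental line). Abca2, a transporter of the family of Abca1, was at 12.2 in the parental line, 87.6 and 76.2 in the vector controls and 88.4 and 98.0 with the knockdown. Its log2 difference was 0.19 without the parental line. Apoe, a lipoprotein component, was at 89.2, 46.5 and 44.7 in the control lines and 13.1 and 56.5 in the knockdown lines, so the groups overlapped, and the log2 difference was -0.01 without knockdown line 1.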

How the data were processed

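RNA of 5 Neuro2A lines was hybridised to 1 Affymetrix array each after biotin labelling, per the labels. The deposited values are signal intensities on a linear scale that the authors made with MAS5, per the submitters' processing notes. No version of it is given in the sources used here. Every array's deposited intensity had a 2% trimmed mean of 500.0, so no further scaling was applied.

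Of 45101 probe sets 64 controls were left out. Signals were taken to log2 without an offset, and the 22519 probe sets whose log2 signal, averaged across the arrays, reached the median (a signal of 40.5) were tested with limma 3.58.1 in R 4.3.3 (lmFit, eBayes with trend and robust, 3 residual degrees of freedom, median prior 5.42), 2 knockdown against 3 control lines, with Benjamini-Hochberg adjustment over all of them at 0.05. A model with 3 groups set each knockdown line against the controls. Without a knockdown line 1 is left, assumed to vary as the control lines do. The fit was run on simulated data with independent normal noise and known changes, larger than those of most sterol genes. Effects shared by a line or an array were not simulated, so that run does not cover them.

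Symbols came from the platform annotation: 34945 probe sets had 1, 932 several and 9160 none. All 29 measured members were found by gene number in a GRCm38.p6 gene table. No coordinates of probe sets are given. The members and lists were chosen with earlier results of these data known. Named genes are all members by their brightest probe set, Kdm7a, and of the further list the 4 tested genes of largest difference. Alternatives were quantile normalization, median centring, cyclic loess, an offset of 32, no filter, array weights, a brightness limit at the 70th percentile, plain eBayes (neither trend nor robust), an adjusted p under 0.10, averaging a gene's probe sets and leaving out each array. Counting each tested probe set on its own was added after seeing the data.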

Additional observations from a re-analysis of the deposited data

How the results depend on the processing

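Each alternative left 0 sterol probe sets past the test. Over all probe sets the 2 calls became 1 with median centring, 0 with cyclic loess, 0 with plain eBayes, 6 with array weights and 4 at an adjusted p under 0.10, and 0 to 4 when each array was left out. Of the 29 sterol genes, the 8 above every control line became 5 with median centring and 10 to 13 without each array (where 18.5% to 24.5% of all probe sets lay there, beside 12.6%), and the 1 below became 2 with median centring, 0 with the filter at the 70th percentile (which tests 26 of them), 0 with the mean over probe sets, 0 of 55 probe sets counted on their own, and 1 to 5 without each array (16.6% to 20.9% of all probe sets, beside 10.2%). The median log2 difference became 0.04 with median centring, which moved every difference alike by -0.11, beside -0.08 over all probe sets. Without each array it was 0.08 to 0.15, beside 0.01 to 0.04 over all probe sets. The parental line was the lowest for 6 genes, not 14, with median centring. The other alternatives kept these values within 1.5 times or within the spread of the control lines.

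For 16 of the 29 genes the log2 difference kept its sign throughout, among them Pmvk (0.77 to 1.27), Fdps (0.30 to 0.52), Insig1 (0.24 to 0.40) Mvd (0.24 to 0.49) and, without each array, Idi1 (-0.43 to -0.05). The sign turned for 13, none of which passed the test. With median centring these were Hmgcs1 (-0.04), Cyp51 (-0.04), Hsd17b7 (-0.08) and Npc2 (-0.03), with the mean over probe sets Msmo1 (-0.02), Hsd17b7 (-0.04) and Sc5d (-0.08), and with array weights Hsd17b7 (-0.01) and Scap (0.00). Leaving out each array gave -0.03 to 0.22 for Hmgcs1, -0.17 to 0.36 for Mvk, -0.02 to 0.30 for Ggps1, -0.13 to 0.12 for Fdft1, -0.02 to 0.20 for Cyp51, -0.21 to 0.00 for Nsdhl, -0.06 to 0.08 for Hsd17b7, -0.04 to 0.38 for Srebf2, -0.25 to 0.16 for Scap, 0.00 to 0.15 for Npc2 and -0.27 to 0.02 for Mylip. Median centring shifted every difference by -0.11, and leaving out an array made the samples smaller. The mean over probe sets included a dim one at -0.16 for Msmo1 and a dim one at -0.49 for Sc5d. No cause of the turns was tested. With 3 control and 2 knockdown arrays, their number sets the precision, and signals near 40.5 or lower were not shown to be above background. No paired analysis was possible because the labels number only the knockdown lines and the controls are of different kinds.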
